A study of Mus musculus with 18 samples.

Results

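The genes described here are the core of the transforming growth factor beta (TGF-beta) receptor and SMAD pathway. They are the receptors Tgfbr1, Tgfbr2 and Tgfbr3, the signal transducers Smad2, Smad3 and Smad4, the inhibitory SMAD Smad7 and the nuclear corepressors Ski, Skil and Tgif1. They were chosen by symbol, and all 10 were found in both count tables, as 10 of 54309 genes in the lymphocyte table and 10 of 13759 in the macrophage table. Liver metastases (LM) were produced by injecting MC38, a mouse colon adenocarcinoma line, into the spleen of female C57BL/6J mice that were 8 to 10 weeks old, and livers were taken on day 20. All mice in the libraries used here carried MC38 tumors, so that the metastasis-free liver (MFL) also came from injected mice. From MFL, NK cells (lin- CD45+ NKp46+ CD49a- CD49b+) and ILC1s (CD49a+ CD49b-) were sorted, and from LM the CD49a- NK cells (CD49a- CD49b+) and the CD49a+ NK cells (CD49a+ CD49b+). Metastasis-associated macrophages (MAMs) were sorted from LM as lin- CD45+ CD11b+ cells with high or low F4/80. Each population had 3 libraries, and each lymphocyte library came from 6 to 8 pooled MFL or LM samples, collected in 3 independent sortings per the study. The labels number the libraries 1 to 3 in each population but do not tie a number to a sorting. The labels do not say whether the MAM libraries came from separate mice, so that p-values measure the spread between libraries.

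TGF-beta ligand binds TGFBR2, which recruits and phosphorylates TGFBR1, while TGFBR3 (betaglycan) is a coreceptor that presents ligand. Active TGFBR1 phosphorylates SMAD2 and SMAD3, which enter the nucleus with SMAD4 and change transcription. SMAD7 blocks the receptor and is itself a target of the pathway, and SKI, SKIL (SnoN) and TGIF1 repress SMAD-bound genes. In liver, TGF-beta signaling is known for converting NK cells toward an ILC1-like state and for restraining macrophage activation.

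Total counts were between 8795721 and 14386834 in the 12 lymphocyte libraries and between 21278959 and 32267015 in the 6 MAM libraries. The sort markers followed the labels. Itga1, which encodes CD49a, was at 645 to 679 CPM (read counts scaled to the library's size with TMM factors) in MFL ILC1s, 104 to 155 CPM in LM CD49a+ NK cells and 5.82 to 20.1 CPM in both CD49a- populations. Eomes, an NK cell transcription factor, was at 499 to 1146 CPM in the 3 NK populations and at 7.57 to 40.2 CPM in MFL ILC1s, and Adgre1, which encodes F4/80, was at 806 to 1167 CPM in F4/80high and at 124 to 160 CPM in F4/80low MAMs. LM tissue was digested with enzymes and MFL tissue was pressed through a filter, so that the site and the dissociation cannot be told apart in any comparison of LM with MFL. In such bulk libraries, fewer cells with a transcript and less of it per cell cannot be told apart.

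Of the receptor-activated transducers, Smad3 stood above Smad2 in every population when levels were divided by exon length. Per kilobase of exon, Smad3 was at 73.1 ± 4.2 CPM (SD, n = 3) in MFL NK cells and Smad2 at 5.79 ± 1.2 CPM. In LM CD49a+ NK cells the means were 43.4 ± 16 and 3.12 ± 1.3 CPM per kilobase, and in MFL ILC1s 35.8 ± 2.8 and 3.83 ± 0.87 CPM per kilobase (SD, n = 3 each). In F4/80high MAMs Smad3 was at 11.3 ± 1.7 and Smad2 at 4.63 ± 0.21 CPM per kilobase, and in F4/80low MAMs at 8.01 ± 1.5 and 4.81 ± 0.039 (SD, n = 3 each). Among the receptors, Tgfbr2 was at 18.1 ± 1.2 CPM per kilobase in MFL NK cells, Tgfbr1 at 4.77 ± 0.72 and Tgfbr3 at 0.542 ± 0.073 (SD, n = 3). The lymphocyte and MAM libraries were made with different kits, so that no level was tested across them.

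**Figure D1:**
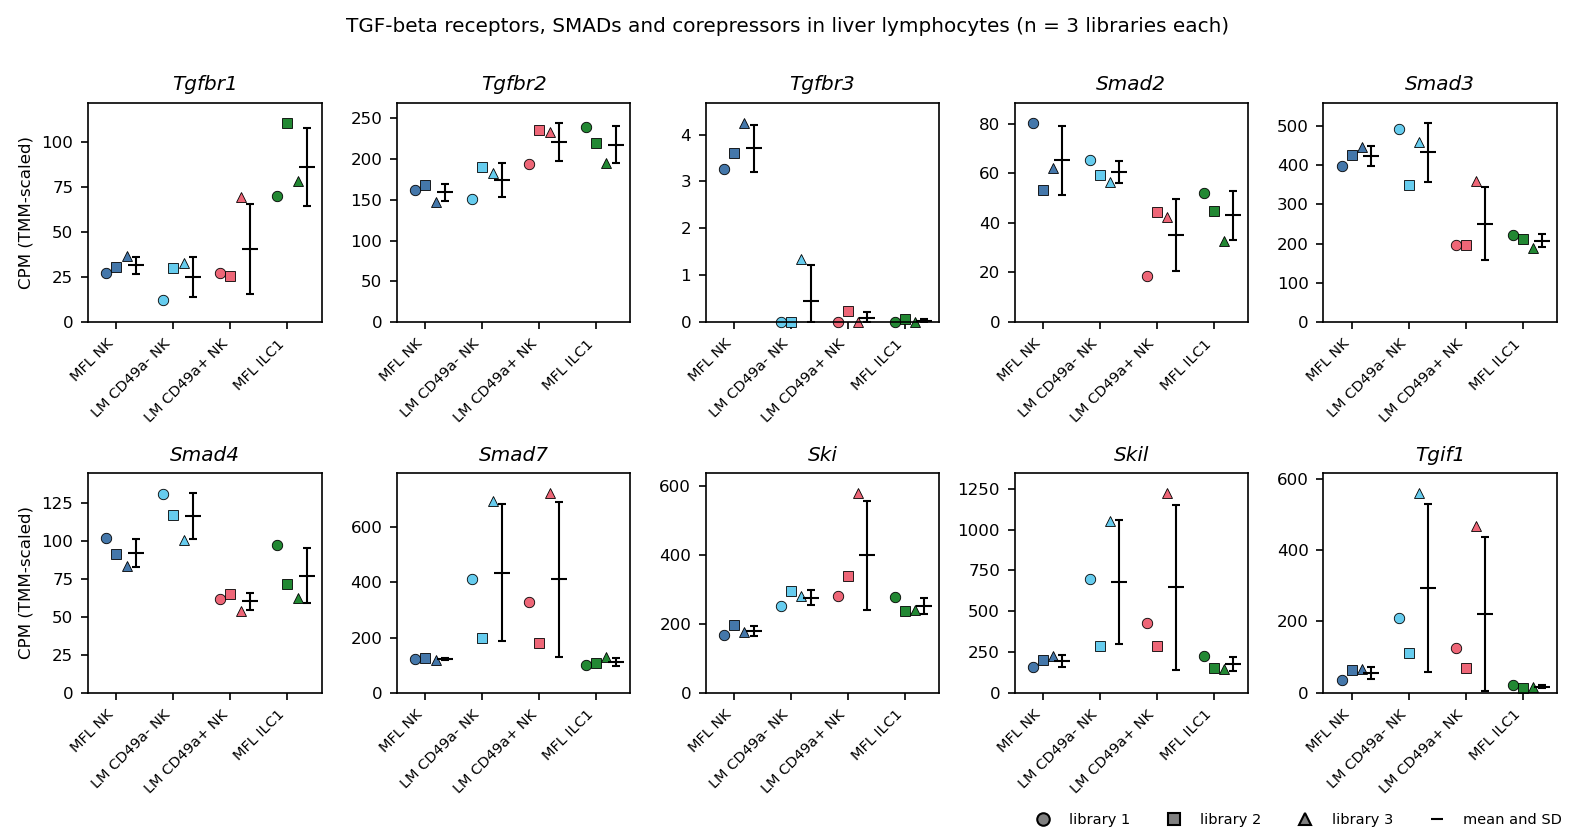
CPM of each of the 10 genes in the 12 lymphocyte libraries, with a symbol for each library and the mean and SD (n = 3) beside each population; each vertical axis starts at 0. Smad7, Skil and Tgif1 reached their 3 highest values in LM libraries, with library 3 of both LM populations at the top, while Smad3 was lowest in MFL ILC1s and in 2 of the LM CD49a+ libraries.

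Tgfbr2 (GRCm39 chr9:115913361-116004800, minus strand), the ligand-binding receptor, varied little. It was at 162, 168 and 148 CPM in MFL NK cells, at 150, 190 and 183 CPM in LM CD49a- NK cells, at 193, 236 and 233 CPM in LM CD49a+ NK cells and at 239, 220 and 195 CPM in MFL ILC1s. Every library of the CD49a+ populations was above every library of the CD49a- populations, although the lowest of the former (193 CPM) and the highest of the latter (190 CPM) were close. No lymphocyte comparison of Tgfbr2 passed the test in edgeR.

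Tgfbr1 (chr4:47353134-47414931, plus strand), the signaling receptor, was at 27.2, 30.8 and 36.7 CPM in MFL NK cells and at 12.5, 30.2 and 32.6 CPM in LM CD49a- NK cells. It was at 69.8, 111 and 78.3 CPM in MFL ILC1s, above every MFL NK library. In LM CD49a+ NK cells it was at 27.1, 25.6 and 69.5 CPM, so that library 3 alone lay near the ILC1 range. The order of the means was MFL ILC1, LM CD49a+ NK, MFL NK and LM CD49a- NK, and the last 3 overlapped.

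Tgfbr3 (chr5:107249402-107437623, minus strand), the coreceptor, was detected mainly in MFL NK cells, at 40, 49 and 58 counts or 3.26, 3.61 and 4.25 CPM. LM CD49a- NK libraries had 0, 0 and 17 counts, LM CD49a+ NK libraries 0, 3 and 0, and MFL ILC1 libraries 0, 1 and 0. On summed counts, Tgfbr3 in MFL NK cells was 6.73 times that in LM CD49a- NK cells (95% interval 4.06 to 11.9), 41.2 times that in LM CD49a+ NK cells (13.8 to 202) and 134 times that in MFL ILC1s (23.7 to 5337). These exact intervals cover counting error only. No comparison passed the test across genes, and the adjusted p was 0.426 for MFL ILC1s and 0.532 for LM CD49a+ NK cells against MFL NK cells (edgeR, n = 3).

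Smad3 (chr9:63554049-63665476, minus strand) was at 398, 426 and 447 CPM in MFL NK cells and at 492, 349 and 459 CPM in LM CD49a- NK cells, and these ranges overlapped. It was lower in MFL ILC1s, at 222, 211 and 190 CPM, and in 2 of 3 LM CD49a+ NK libraries, at 197 and 198 CPM, while the other, library 3, was at 359 CPM. Smad2 was at 80.3, 53.2 and 61.9 CPM in MFL NK cells, at 65.4, 59.4 and 56.6 CPM in LM CD49a- NK cells, at 18.5, 44.3 and 42.5 CPM in LM CD49a+ NK cells and at 52, 44.6 and 32.5 CPM in MFL ILC1s. Both CD49a+ populations thus lay below both CD49a- populations in every library for Smad2, although the closest libraries were at 52 and 53.2 CPM. No lymphocyte comparison of Smad2 passed the test in edgeR. Smad4, the shared partner SMAD, was at 102, 91.7 and 83.3 CPM in MFL NK cells and at 131, 117 and 101 CPM in LM CD49a- NK cells. It was at 61.6, 65.2 and 53.9 CPM in LM CD49a+ NK cells and at 97.5, 71.8 and 62.1 CPM in MFL ILC1s. The LM CD49a+ NK libraries did not overlap those of either CD49a- population. Taken one population at a time, there was no overlap for 9.82% (LM CD49a- NK) and 20.1% (MFL NK) of all genes. The share for both at once was not computed.

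Of the inhibitory members, Smad7, Skil and Tgif1 separated the LM from the MFL libraries and Ski did not. Smad7 was at 121, 126 and 120 CPM in MFL NK cells and at 98.8, 108 and 128 CPM in MFL ILC1s. It was at 414, 198 and 694 CPM in LM CD49a- NK cells and at 329, 181 and 724 CPM in LM CD49a+ NK cells. All 6 LM libraries were above all 6 MFL libraries. The share of all genes with such a split of 6 libraries from 6 was not computed, for the sites here and below or for the CD49a splits of Tgfbr2 and Smad2 above.

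Skil (chr3:31148816-31176740, plus strand) was at 155, 202 and 227 CPM in MFL NK cells and at 225, 151 and 146 CPM in MFL ILC1s, against 697, 287 and 1052 CPM in LM CD49a- and 429, 286 and 1224 CPM in LM CD49a+ NK cells. Tgif1 (chr17:71151192-71160541, minus strand) was at 35.6, 64.3 and 66.7 CPM in MFL NK cells and at 21.5, 13.4 and 16.2 CPM in MFL ILC1s, against 209, 112 and 559 CPM in LM CD49a- and 125, 68.4 and 467 CPM in LM CD49a+ NK cells. For both genes the 6 LM libraries again lay above the 6 MFL libraries, and for Tgif1 the closest LM and MFL libraries were at 68.4 and 66.7 CPM. Ski (chr4:155238532-155307543, minus strand) was at 167, 196 and 176 CPM in MFL NK cells, at 276, 238 and 238 CPM in MFL ILC1s, at 250, 295 and 281 CPM in LM CD49a- NK cells and at 280, 337 and 578 CPM in LM CD49a+ NK cells. Ski was thus lowest in MFL NK cells, whose libraries overlapped no others, and library 3 of the LM CD49a+ NK cells stood above the rest. The share of all genes with the MFL NK libraries set apart in this way was not computed.

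Whether the metastasis changed the pathway in conventional NK cells is asked by LM CD49a- against MFL NK cells. Tgif1 was 5.28-fold higher in LM (log2 fold change 2.40 ± 0.61 SE), Smad7 3.56-fold (1.83 ± 0.43) and Skil 3.48-fold (1.80 ± 0.47), but none passed at an adjusted p under 0.1 (edgeR, n = 3, adjusted p = 0.274, 0.243 and 0.297). None of the 10 genes was called, against 0.0736% of the 13594 genes tested, and 4 of the 10 had an unadjusted p under 0.05, against 914 of all genes. DESeq2 called Skil and Smad7, against 1.18% of all genes, and limma-voom these and Tgif1, against 0.765%. The 2 groups of libraries did not overlap for 5 of the 10 genes, 4 higher and 1 lower in LM, against 16.2% of all genes. The receptors and transducers gave log2 fold changes between -0.33 and 0.33 apart from Tgfbr3, and the 95% intervals for Tgfbr2 (-0.31 to 0.57) and Smad3 (-0.48 to 0.55) were the narrowest of these. A 5-gene hepatocyte list also differed between the sites, with a summed level of 17.1 to 105 CPM in MFL NK cells and 31.1 to 80.5 CPM in MFL ILC1s, against 0 to 2.00 CPM in LM CD49a- and 0 to 13.1 CPM in LM CD49a+ NK cells. Apoa2 was at 0 in every LM library, and the part of this list in the comparisons of LM with MFL was not tested. Without LM CD49a- library 3, the log2 fold changes of Tgif1, Smad7 and Skil were 1.52, 1.31 and 1.33. Leaving out LM CD49a- library 2 or LM CD49a+ library 3 brought the calls to 3, which were Skil, Smad7 and Tgif1 each time, all higher in LM. These settings called 0.592% and 0.152% of all genes.

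For LM CD49a+ against MFL NK cells, Ski was 2.22-fold higher (log2 fold change 1.15 ± 0.25 SE) and passed the test (edgeR, n = 3, adjusted p = 0.0526). It was the 1 call among the 10 genes, against 0.647% of all genes in either direction and 0.427% in the higher direction. An unadjusted p under 0.05 was found for 8 of the 10, against 1324 of the 13594 genes tested (edgeR). The log2 fold changes of the others were 1.99 ± 0.60 for Tgif1, 1.75 ± 0.43 for Smad7 (adjusted p = 0.105), 1.73 ± 0.47 for Skil, -0.75 ± 0.25 for Smad3, -0.89 ± 0.39 for Smad2 and -0.61 ± 0.27 for Smad4 (SE). The libraries did not overlap for 9 of the 10 genes, with the inhibitory members and Tgfbr2 higher in LM CD49a+ NK cells and the transducers and Tgfbr3 lower, against 20.1% of all genes. Without LM CD49a+ library 3 the log2 fold changes of Tgif1, Smad7 and Skil were 0.80, 1.05 and 0.87. The Ski call was lost without any single MFL NK library and without LM CD49a+ library 3. Without LM CD49a+ library 3, Smad3 (lower) was the 1 call, and without LM CD49a+ library 2 there were 4, with Skil, Smad7 and Tgif1 beside Ski. These settings called 0.503% and 1.13% of all genes. Leaving out LM CD49a- library 2 gave 3 calls (Ski, Skil and Smad7) and LM CD49a- library 3 gave 2 (Ski and Smad7), against 1.16% and 0.73% of all genes.

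LM CD49a+ NK cells and MFL ILC1s share CD49a but differ in site, dissociation and cell type, which cannot be told apart in this comparison. Here 3 of the 10 genes passed the test, all higher in LM CD49a+ NK cells. Of all genes, 3.58% were called in either direction and 2.29% were called higher. Tgif1 was 12.9-fold higher (log2 fold change 3.69 ± 0.64 SE, adjusted p = 0.00314), Skil 3.72-fold (1.89 ± 0.47, adjusted p = 0.0398) and Smad7 3.69-fold (1.88 ± 0.43, adjusted p = 0.0231; edgeR, n = 3). Ski was at 0.67 ± 0.25 and Tgfbr1 at -1.08 ± 0.47 on the log2 scale (SE), and neither passed. The receptor Tgfbr2 (0.02, 95% interval -0.42 to 0.46) and the transducer Smad3 (0.28, -0.24 to 0.79) were not distinguished. The libraries did not overlap for 5 genes, 4 higher and 1 lower, against 23.2% of all genes. An unadjusted p under 0.05 was found for 5 of the 10, against 1913 of the 13594 genes tested (edgeR). Tgif1 was called under each of the 20 alternatives tried, with adjusted p up to 0.0219, whereas Skil was lost without MFL ILC1 library 2 or 3 or LM CD49a+ library 3, and Smad7 without MFL ILC1 library 1 or LM CD49a+ library 3. Without LM CD49a+ library 3, Tgif1 was the 1 call, with a log2 fold change of 2.50, and those of Skil and Smad7 were 1.04 and 1.19. This setting called 2.18% of all genes. The T cell list moved with this contrast too, with a summed level of 5.17 to 35.7 CPM in LM CD49a+ NK cells, where Cd4 and Cd8a were at 0, and 247 to 680 CPM in MFL ILC1s, and its part was not tested. Without LM CD49a+ library 1, Ski was also called (0.88), against 2.48% of all genes.

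**Figure D2:**
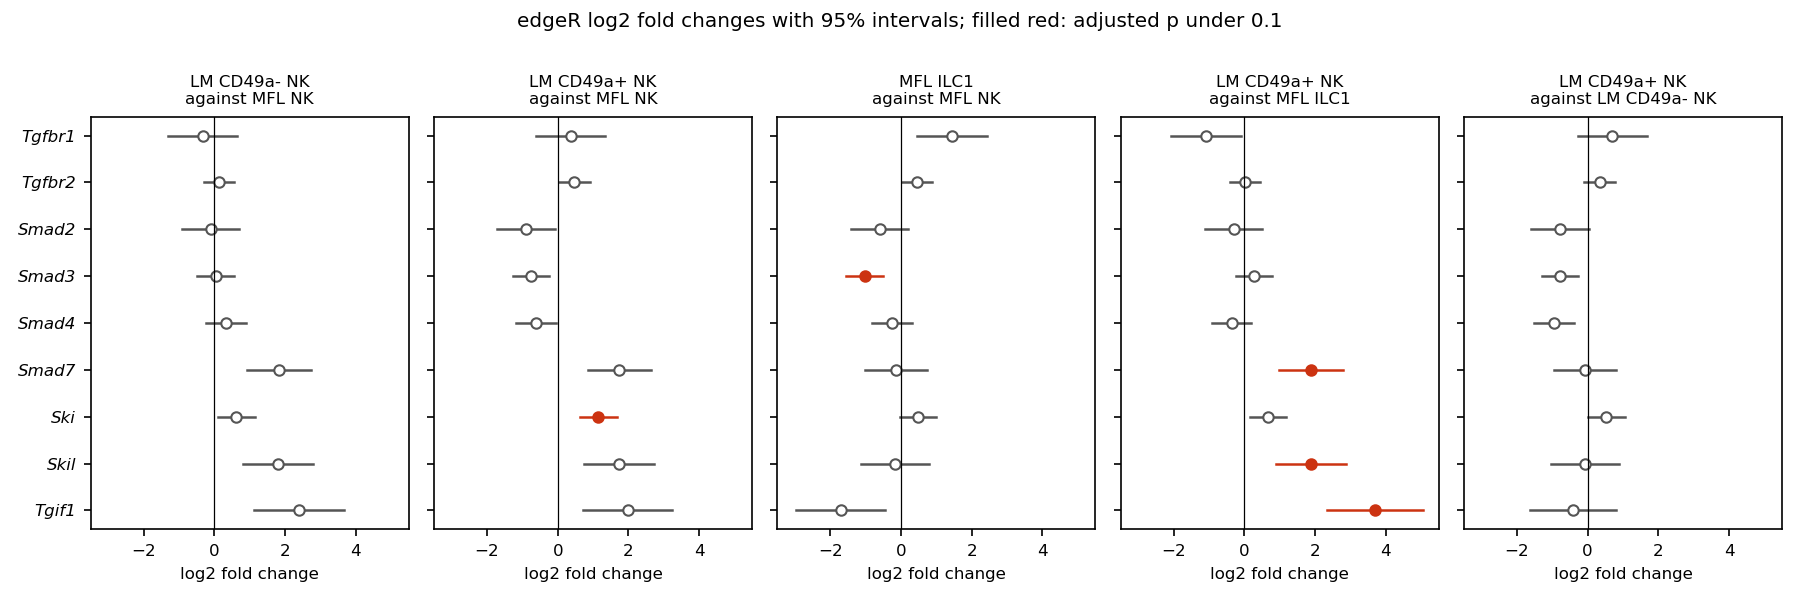
Log2 fold changes of 9 of the 10 genes in 5 comparisons of lymphocyte populations, with points for the edgeR estimate, bars for its 95% interval and filled red points for an adjusted p under 0.1 (n = 3 libraries per population). Tgfbr3 is left out because most libraries held 0 counts. Smad7, Skil and Tgif1 lie to the right of 0 in the 3 comparisons of an LM with an MFL population.

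At the tumor-free site, MFL ILC1s against MFL NK cells, Smad3 fell by 1.03 ± 0.25 on the log2 scale (SE), or 2.04-fold (edgeR, n = 3, adjusted p = 0.0304). It was the 1 call among the 10 genes, against 3.06% of all genes in either direction and 1.68% in the lower direction. An unadjusted p under 0.05 was found for 5 of the 10, against 1138 of the 13594 genes tested (edgeR). Tgfbr1 gave 1.45 ± 0.47 (adjusted p = 0.169), Tgif1 -1.71 ± 0.60 (0.228), Ski 0.48 ± 0.25 and Tgfbr2 0.45 ± 0.21 on the log2 scale (SE), and none passed. The libraries did not overlap for 7 of the 10 genes, 3 higher and 4 lower, against 25.3% of all genes. The Smad3 call was lost without MFL NK library 2 or 3 or MFL ILC1 library 2 or 3, although its estimate stayed between -1.08 and -0.97. Tgfbr1 was also called without LM CD49a- library 1, and Tgfbr1 and Tgif1 without LM CD49a+ library 3, against 3.37% and 3.23% of all genes. When only these 2 populations were fitted, which called 9.61% of all genes, 5 of the 10 genes were called: Smad3 and Tgif1 lower, Tgfbr1 and Ski higher and Tgfbr3 lower. The summed level of a 6-gene T cell list was 247 to 680 CPM in the MFL ILC1 libraries and 4.97 to 14.6 CPM in MFL NK cells. Of its genes, 4, 6 and 5 were above 0 in MFL ILC1 libraries 1, 2 and 3. The part of this list in the result was not tested.

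Within LM, CD49a+ against CD49a- NK cells, none of the 10 genes was called, against 0.14% of all genes. Smad4 gave -0.95 ± 0.27, Smad3 -0.79 ± 0.25 and Ski 0.53 ± 0.25 on the log2 scale (SE), and these 3 had an unadjusted p under 0.05, against 1579 of all genes (edgeR, n = 3, adjusted p = 0.28, 0.308 and 0.422). DESeq2 called Smad3 and Smad4, both lower, against 3.99% of all genes, and limma-voom called none of the 10 and 0% of all genes. Smad7 (-0.08, 95% interval -0.96 to 0.79) and Skil (-0.07, -1.03 to 0.89) had wide intervals around 0. The libraries did not overlap for 3 of the 10 genes, which were Tgfbr2 (higher), Smad2 and Smad4 (lower), against 9.82% of all genes. Without LM CD49a+ library 3, Smad3 was called, against 0.228% of all genes. A test of the interaction, which asks whether the CD49a difference differs between LM and MFL, called 1.03% of all genes in edgeR, and none of the 10 genes in edgeR or DESeq2. The 10 estimates lay between -0.75 and 4.33 on the log2 scale, and 0 of the 10 had an unadjusted p under 0.05, against 1183 of all genes.

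Tgif1 carried the largest called change among the 10 genes in lymphocytes, and Tgfbr2 in MAMs, and the stretches before their starts are shown for CAGAC, the short letters that SMAD3 and SMAD4 bind. RefSeq windows of 250 bases before a transcript start (from the GRCm38.p6 table) were used for 5 of the 10 genes, as 10 windows, and were placed on GRCm39 by exact match. These genes were Ski, Smad3, Tgfbr1, Tgfbr2 and Tgif1, and Tgif1 had the most windows. None of the 10 windows was of Smad2, Smad4, Smad7, Skil or Tgfbr3, so that the counts below do not cover those genes. CAGAC, or its reverse complement GTCTG, occurred in 5 of the 10 windows and in 42.2% of the 32851 windows of that length, and the palindrome GTCTAGAC in none of the 10 and in 0.167% of all. The matches before the Tgif1 starts (chromosome 17, minus strand) and the Tgfbr2 start (chromosome 9, minus strand) are printed with 10 bases on either side and the match in capitals, and they lie in exons of the GENCODE annotation except for 3 bases of the first:
Tgif1, chr17:71156788-71156812, match 17 bases before a start: cacattctttCAGACctagaccgcg
Tgif1, chr17:71158774-71158798, match 59 bases before a start: cggtgactatGTCTGcctcccccca
Tgif1, chr17:71158906-71158930, match 191 bases before the same start: ccccctagccCAGACgtttaaagag
Tgif1, chr17:71160714-71160738, match 201 bases before a start: ttccgccgcgCAGACagcggataga
Tgfbr2, chr9:116004577-116004601, match 160 bases before a start: acttggagccCAGACttggcggggt
A match is a description of the letters only, and the gene-level counts do not say which start was used.

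The LM libraries with high Smad7, Skil and Tgif1 also had a higher summed level of immediate-early and stress genes. The list of 15 such genes was chosen after these values were seen. Its summed level was 5213 to 6592 CPM in MFL NK cells and 3989 to 6887 CPM in MFL ILC1s, and 14335, 6735 and 12274 CPM in LM CD49a- and 9138, 6513 and 10954 CPM in LM CD49a+ NK cells. Library 2, the lowest of each LM population in the list, was also the lowest of each in Smad7, Skil and Tgif1. In LM CD49a- NK cells, however, library 1 was the highest in the list and library 3 in Smad7, Skil and Tgif1. The genes of the list did not move together. Hspa1b, a heat shock gene, was at 1260, 1244 and 607 CPM in LM CD49a- and at 513, 1652 and 454 CPM in LM CD49a+ NK cells. Library 3 was thus its lowest in both LM populations. In MFL NK cells it was at 66 to 91.4 CPM and in MFL ILC1s at 25.9 to 162 CPM. Nr4a1, a nuclear receptor gene, was at 2046, 541 and 3140 CPM in LM CD49a- and at 843, 222 and 3002 CPM in LM CD49a+ NK cells, against 249 to 326 CPM in MFL NK cells, whereas Fos in library 3 was at 357 CPM in LM CD49a- and 547 CPM in LM CD49a+ NK cells, within or just under its range of 366 to 593 CPM in MFL NK cells. Nr4a1, Fos and Hspa1b were singled out after their values were seen. Against MFL NK cells, 2 of the 15 genes were called higher in LM CD49a- and 2 in LM CD49a+ NK cells, and against MFL ILC1s 4 were called higher in LM CD49a+ NK cells. Of the 13594 genes tested, 9, 58 and 311 were called higher in these comparisons. The part of this in the results for Smad7, Skil and Tgif1 was not tested.

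**Figure D3:**
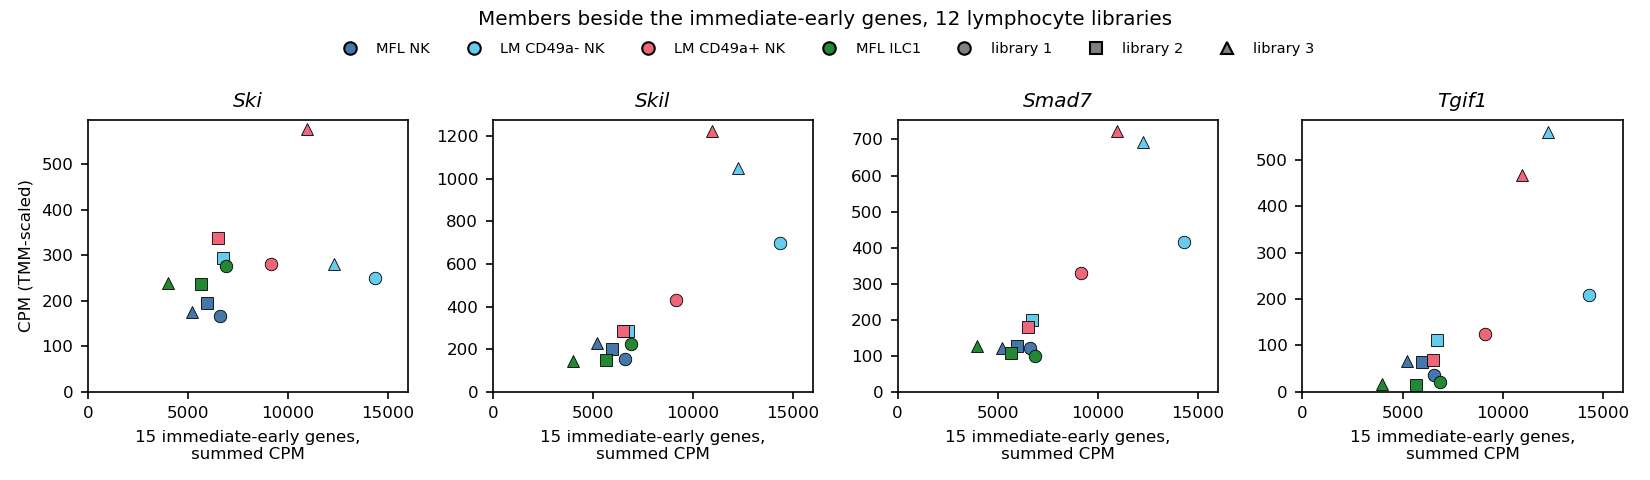
CPM of Ski, Skil, Smad7 and Tgif1 (vertical axes, starting at 0) against the summed CPM of the 15 immediate-early and stress genes (horizontal axis) in the 12 lymphocyte libraries, colored by population and with a symbol for each library number. The MFL libraries sit together between 3989 and 6887 summed CPM, library 2 of each LM population lies at 6513 and 6735, and LM libraries 1 and 3 lie further right and higher for Skil, Smad7 and Tgif1.

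Among the other lymphocyte genes, the profiles most like those of the called members were named by Pearson correlation of log2 CPM over the 12 libraries, which share 4 populations. Smad3 was closest to Dock2 (r = 0.94) and Wdr26 (0.93), Ski to Celf2 (0.89) and Ibtk (0.88), Smad7 to Nsd3 and Litaf (both 0.97), Skil to Nsd3 and Nr4a3 (both 0.98) and Tgif1 to Socs3 (0.99) and Ubald2 (0.98). Socs3 is a feedback inhibitor of cytokine signaling and belongs to the list of immediate-early and stress genes above.

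Of 65 further genes of the pathway, 51 could be tested in lymphocytes, and few were called. Tgfb1, the main ligand gene of leukocytes, was at 150, 182 and 170 CPM in MFL NK cells and at 157, 185 and 149 CPM in MFL ILC1s, against 475, 305 and 758 CPM in LM CD49a- and 408, 380 and 687 CPM in LM CD49a+ NK cells. It was called higher in all 3 comparisons of LM with MFL, with log2 fold changes of 1.61 ± 0.30 (LM CD49a- against MFL NK, adjusted p = 0.0711), 1.56 ± 0.30 (LM CD49a+ against MFL NK, 0.0262) and 1.59 ± 0.30 (LM CD49a+ NK against MFL ILC1, 0.00691; edgeR, SE, n = 3). Tgfb3 was at 0 to 61.1 CPM without a call, and Tgfb2 was under 1 CPM in every lymphocyte library. The Tgfb1 call in LM CD49a- against MFL NK cells was lost under 8 of 20 alternatives (adjusted p up to 0.485), among them leaving out any MFL NK library, LM CD49a- library 1 or MFL ILC1 library 1 or 3. That in LM CD49a+ against MFL NK cells was lost under 4 of 20 (up to 0.171), without any MFL NK library or LM CD49a+ library 3, and that against MFL ILC1s was kept in all 20. The first 2 of these comparisons share the MFL NK libraries, and the last 2 share the LM CD49a+ libraries.

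Pmepa1, a TGF-beta target that restrains the receptor-activated SMADs, was at 1.79, 9.13 and 3.45 CPM in MFL NK cells and, in MFL ILC1s, at 16.4, 9.06 and 7.85 CPM, against 7.56, 31.3 and 82.8 CPM in LM CD49a- and 75.1, 60.6 and 97.3 CPM in LM CD49a+ NK cells. It was called higher in LM CD49a+ NK cells against MFL NK cells (log2 fold change 4.02 ± 0.79 SE, adjusted p = 0.0279) and against MFL ILC1s (2.81 ± 0.75, 0.0606; edgeR, n = 3). The first call was lost without MFL NK library 1 or 3, and the second under 7 of 20 alternatives, among them leaving out any MFL ILC1 library or LM CD49a+ library 1 or 3. Zeb2, a SMAD-binding repressor of the nuclear partner list, was at 688, 601 and 727 CPM in MFL NK cells. It was at 414, 433 and 457 CPM in LM CD49a-, at 120, 138 and 137 CPM in LM CD49a+ NK cells and at 37, 28.4 and 11.7 CPM in MFL ILC1s, with no overlap between populations. The share of all genes with such a split was not computed. The log2 fold changes of Zeb2 were -1.72 ± 0.30 between the LM populations (adjusted p = 0.0402), -2.35 ± 0.31 for LM CD49a+ against MFL NK cells (0.00113), -4.70 ± 0.34 for MFL ILC1s against MFL NK cells (1.93e-07) and 2.35 ± 0.31 for LM CD49a+ NK cells against MFL ILC1s (0.00024; edgeR, SE, n = 3), and it was not called for LM CD49a- against MFL NK cells (-0.63, 0.742). The call between the LM populations was lost with limma-voom and without LM CD49a+ library 1 or 2 (adjusted p up to 0.168), and the other 3 were kept in all 20 alternatives. No gene of the 8 other receptors, 2 other SMADs or 16 receptor and SMAD regulators tested was called in any of the 5 comparisons.

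In MAMs the pathway was read in 2 populations of the same tissue and dissociation. F4/80high MAMs had more Tgfbr1, Tgfbr2, Smad3 and Ski and less Smad4, Smad7, Skil and Tgif1 than F4/80low MAMs. Of the 10 genes, 8 passed the test, 4 higher and 4 lower in F4/80high MAMs, but 54.9% of all genes did, 27.8% higher and 27.1% lower. The libraries did not overlap for 7 of the 10, 3 higher and 4 lower, against 58.4% of all genes.

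Tgfbr2 was at 388, 349 and 556 CPM in F4/80high and at 156, 186 and 170 CPM in F4/80low MAMs. This was a 2.53-fold difference (log2 fold change 1.34 ± 0.17 SE, edgeR, n = 3, adjusted p = 0.000389). Tgfbr1 was at 282, 262 and 342 CPM against 188, 275 and 219 CPM, with overlapping libraries, and was 1.30-fold higher (0.38 ± 0.15, adjusted p = 0.0772). This call was lost without F4/80high library 1 or 3 or F4/80low library 1 or 3. Tgfbr3 was at 2.88, 4.46 and 4.22 CPM against 3.02, 2.8 and 2.94 CPM and was not called (0.40, 95% interval -0.12 to 0.93), except without F4/80high library 1 (0.57).

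Smad3 was at 57.3, 62.8 and 76.8 CPM in F4/80high and at 36.9, 52.8 and 49.5 CPM in F4/80low MAMs, 1.42-fold higher (log2 fold change 0.50 ± 0.16 SE, edgeR, n = 3, adjusted p = 0.0288). The call was narrowly lost without F4/80high library 3 (adjusted p = 0.101). Smad4 went the other way, at 50.5, 53.4 and 57.8 CPM against 76.2, 73.6 and 75.4 CPM, and fell by 0.48 ± 0.08 on the log2 scale (adjusted p = 0.0017). Smad2 was at 50.4, 54.7 and 51.1 CPM against 54.6, 53.9 and 53.8 CPM and was not called, and its 95% interval of -0.23 to 0.12 on the log2 scale was the narrowest of the 10.

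Smad7 was at 44.9, 42.2 and 32.8 CPM in F4/80high and at 85.9, 77.9 and 82.7 CPM in F4/80low MAMs, and fell by 1.04 ± 0.12 on the log2 scale, or 2.06-fold (edgeR, SE, n = 3, adjusted p = 0.000242). Skil was at 208, 177 and 203 CPM against 290, 269 and 251 CPM and fell by 0.46 ± 0.10 (adjusted p = 0.00475). Tgif1 was at 63.8, 60.7 and 54.8 CPM against 99.4, 76.7 and 79.9 CPM and fell by 0.51 ± 0.12 (adjusted p = 0.00706). Ski differed from its relative Skil, at 336, 330 and 382 CPM against 258, 290 and 292 CPM, and was 1.25-fold higher (0.32 ± 0.10, adjusted p = 0.024), a call lost without F4/80low library 1 (adjusted p = 0.109). Ski and Skil thus moved in opposite directions. The libraries did not overlap in either gene, as for 58.4% of all genes.

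**Figure D4:**
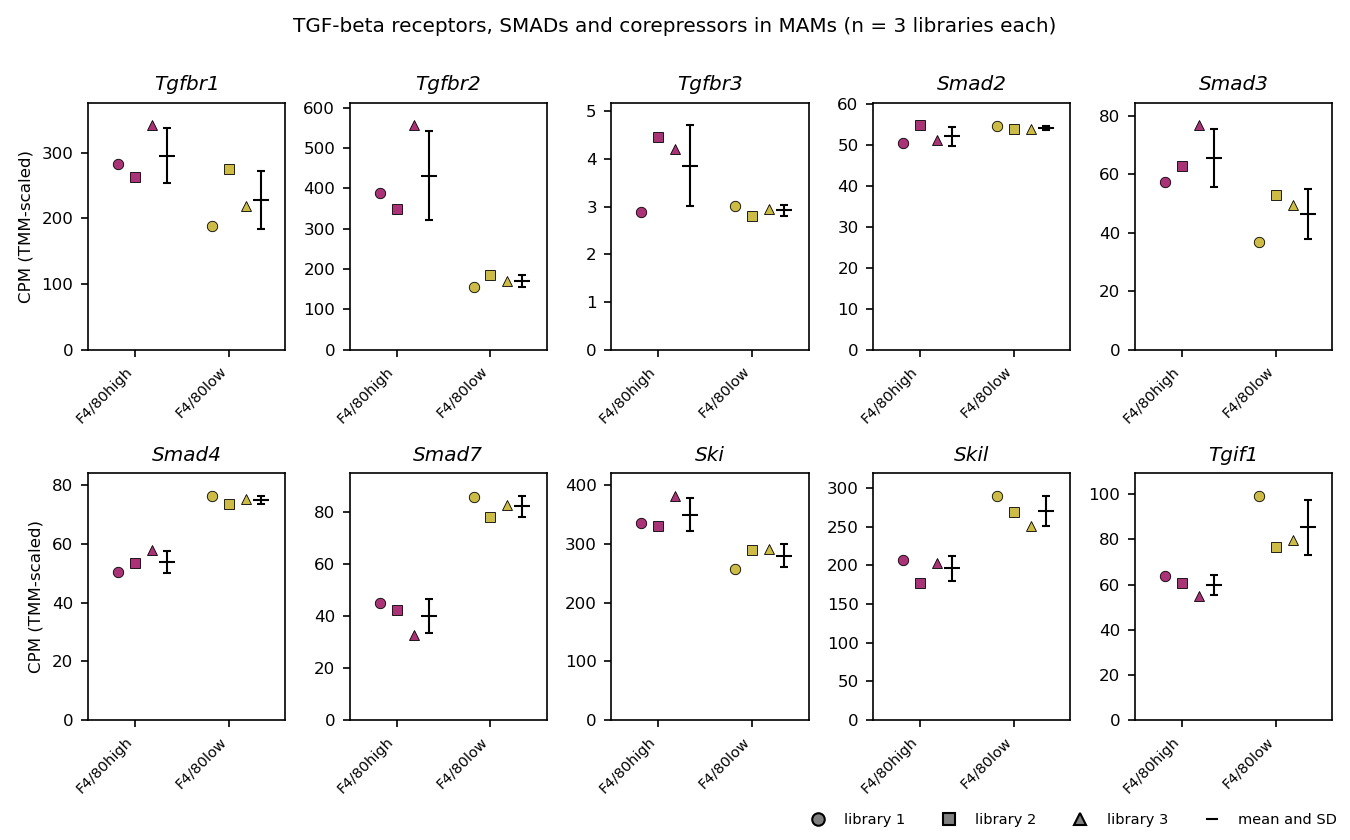
CPM of each of the 10 genes in 3 F4/80high and 3 F4/80low MAM libraries, with a symbol for each library and the mean and SD (n = 3) beside each population; each vertical axis starts at 0. Tgfbr2, Smad3 and Ski sit higher in every F4/80high library and Smad4, Smad7, Skil and Tgif1 lower.

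Other features of the MAM libraries moved with the same contrast. A 4-gene dendritic cell list summed to 75 to 138 CPM in F4/80high and 882 to 1143 CPM in F4/80low MAMs, a 3-gene monocyte list to 431 to 541 against 1501 to 1509 CPM, and a 7-gene macrophage list to 15524 to 20558 against 9192 to 11695 CPM. A 5-gene fibroblast and stellate cell list, 4 of them in the table, summed to 147 to 221 against 24.8 to 109 CPM. The 15 immediate-early and stress genes summed to 5476 to 8261 CPM against 11951 to 16366 CPM, and 13 of the 15 were called lower in F4/80high MAMs. The parts of these in the results for the 10 genes were not tested.

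Of the 60 other pathway genes tested in MAMs, 16 were higher and 22 lower, to be read against the 54.9% of all genes called (27.8% higher and 27.1% lower), so that the counts of the lists below are a description. Of 14 TGF-beta target genes, 4 were higher and 9 lower in F4/80high MAMs. The higher ones included Pmepa1 (441, 435 and 488 CPM against 110, 99.7 and 101 CPM, log2 fold change 2.13 ± 0.09 SE), the cell-cycle inhibitor gene Cdkn2b (1.44 ± 0.25) and Ldlrad4 (0.78 ± 0.19), a SMAD inhibitor. The lower ones included Itgae, which encodes CD103 and is shared with dendritic cells (-4.45 ± 0.44), and the helix-loop-helix inhibitor genes Id3 (-2.49 ± 0.23) and Id1 (-1.68 ± 0.26). Of the named genes of this list, none had an adjusted p over 0.0108 (edgeR, n = 3).

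Among the ligands, Tgfb1 fell by 0.66 ± 0.09 on the log2 scale (436, 425 and 448 CPM against 651, 688 and 732 CPM, adjusted p = 0.000398), Tgfb3 was higher (18.5, 15.7 and 24.2 CPM against 9.26, 5.12 and 14.4 CPM, 1.03 ± 0.33, adjusted p = 0.0319; edgeR, SE, n = 3), and Tgfb2 was under 1 CPM in all 6 libraries. Of 9 other receptors, 2 were higher, the BMP receptor gene Bmpr1a (log2 fold change 2.16 ± 0.42) and Acvr1 (0.45 ± 0.10), and 3 lower, the decoy receptor gene Bambi (-1.33 ± 0.22), Acvr2a (-0.93 ± 0.12) and Acvr1b (-0.35 ± 0.10). Of 3 other SMADs, the BMP-responsive Smad5 was higher (0.89 ± 0.08) and the inhibitory Smad6 lower (-0.78 ± 0.15), like Smad7. Of 18 regulators, 5 were higher and 5 lower, led by the ubiquitin ligase gene Wwp1 (2.34 ± 0.18), the adaptor gene Dab2 (1.03 ± 0.10) and Tgfbrap1 (0.64 ± 0.11), and by the SMAD anchor gene Zfyve9 (-1.61 ± 0.14), Nedd4l (-0.46 ± 0.08) and Smurf1 (-0.37 ± 0.12). Of 13 nuclear partners, 3 were higher, E2f5 (0.60 ± 0.12), Rbl1 (0.52 ± 0.10) and Ctbp2 (0.21 ± 0.09), and 3 lower, Runx3 (-1.16 ± 0.08), Tgif2 (-0.81 ± 0.28) and Crebbp (-0.42 ± 0.11).

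**Figure D5:**
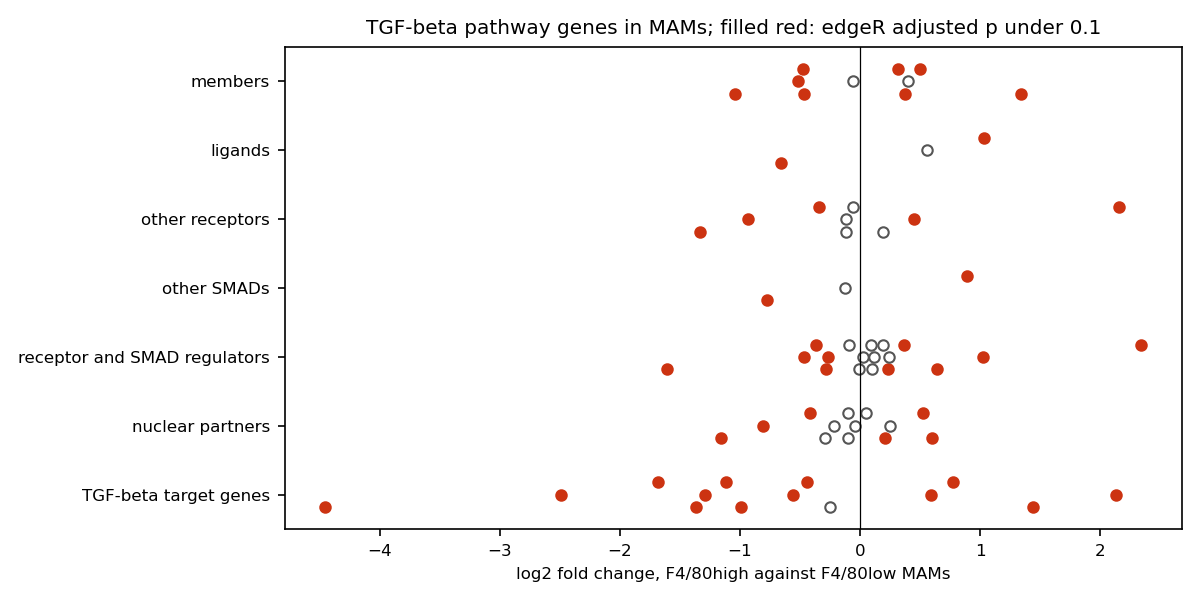
Log2 fold changes between F4/80high and F4/80low MAMs (horizontal axis) for the 10 genes and for 60 further pathway genes grouped by list, with filled red points for an edgeR adjusted p under 0.1 (n = 3 libraries each). The 10 genes lie between -1.04 and 1.34 with a median of 0.13, against a median of 0.01 for all genes tested, and the target genes spread widest, from -4.45 to 2.13.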

How the data were processed

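The lymphocyte and MAM experiments were analysed separately, with 12 libraries (4 populations) and 6 libraries (2 populations). Lymphocyte RNA was extracted from sorted cells and made into stranded total RNA libraries with the SMARTer Pico v2 kit, and MAM libraries were made from poly(A) RNA with a Nextflex directional kit. The authors trimmed reads with Trim Galore and quantified transcripts with Salmon, in versions 1.5.0 and 1.10.0 per the submitters' processing notes, on GRCm39 (GENCODE M27 for lymphocytes; the release for MAMs is not given in the sources used here). What the authors deposited are estimated counts, summed to genes with tximport and already whole numbers, and the deposited MAM table holds no gene with a total under 37.

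Counts were tested with edgeR 4.0.16 (R 4.3.3; TMM scaling, quasi-likelihood test, Benjamini-Hochberg adjustment over all genes tested, threshold 0.1, as in the study). Genes with low counts were removed with filterByExpr, which left 13594 lymphocyte genes and 13759 MAM genes, with all 10 genes in both. All 4 lymphocyte populations shared one fit. CPM are TMM-scaled; CPM per kilobase uses merged exon length, and correlations use log2 CPM with a prior count of 2. Salmon assigns reads shared between related genes by estimation. With 3 libraries against 3, an exact two-sided permutation test cannot go below 0.1, so single values were not tested that way. Total counts of 8795721 to 32267015 per library limit the precision for low genes such as Tgfbr3, which rest on few counts. The standard errors also take in the spread between the 3 libraries of a population.

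Gene names came from GENCODE for 53700 of 54309 and 13726 of 13759 identifiers. The 10 genes, the pathway lists and the marker lists were chosen with earlier results of these data known. Besides the 10 genes, the text names the ligands and, for each pathway list, up to 3 called genes per direction with the largest change, and for each called lymphocyte member the 2 genes with the highest correlation outside the member, pathway and marker lists. The code was tested on simulated data. Alternatives were DESeq2 size factors, no low-count filter, DESeq2 1.42.0, limma-voom with sample quality weights (limma 3.58.1), a replicate block, fits of only the populations compared, a threshold of 0.05 and leaving out each library; leaving out library 3 of both LM populations was added after seeing the data. The immediate-early and stress list was also added after values were seen.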

Additional observations from a re-analysis of the deposited data

Results flagged for a closer look

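Zeb2, a SMAD-binding transcriptional repressor of the nuclear partner list, was the 1 gene called by edgeR in the interaction test among the 10 genes and the 51 further pathway genes tested. This stands against 1.03% of all genes. DESeq2 called 2 of the further pathway genes, Zeb2 among them, against 2.57% of all genes. A gene without a call may still differ between sites. The CD49a+ minus CD49a- difference was -1.72 ± 0.30 on the log2 scale in LM and -4.70 ± 0.34 in MFL (SE, n = 3 libraries each), and the test of the difference between them gave 2.98 ± 0.42 (edgeR quasi-likelihood interaction term, adjusted p = 0.00191). The CD49a+ populations compared are NK cells in LM and ILC1s in MFL, so that site, dissociation and cell type cannot be told apart in this value.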

How the results depend on the processing

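Over the 10 genes, 1118 values were recomputed under an alternative. Of these, 1008 kept their direction and their side of the threshold, 60 came to pass it, 24 no longer passed it and 26 changed direction. Below, the share of all genes called in the same setting is in parentheses. The number of the 10 genes called in LM CD49a+ against CD49a- NK cells (0) became 2 with DESeq2 (3.99%) and 1 with LM libraries 3 left out (2.91%). It was 0 to 1 with each library left out (0.0345% to 1.86%). For LM CD49a- against MFL NK cells (0) it became 2 with DESeq2, 3 with limma-voom, 3 without the low-count filter and 1 with LM libraries 3 left out, and 0 to 3 with each library left out. For LM CD49a+ against MFL NK cells (1) it became 2 with DESeq2 size factors, 4 without the filter, 3 with DESeq2, 4 with limma-voom, 0 in a fit of only these populations and 0 at a threshold of 0.05, and 0 to 4 with each library left out. For MFL ILC1s against MFL NK cells (1) it became 2 without the filter, 2 with DESeq2, 8 with limma-voom, 5 in a fit of only these populations and 3 with LM libraries 3 left out, and 0 to 3 with each library left out. For LM CD49a+ NK cells against MFL ILC1s (3) it became 5 with limma-voom (6.88%), and 1 to 4 with each library left out (1.79% to 4.87%). It was 0 throughout for the interaction, and in MAMs (8) it was 6 to 8 with each library left out (47.8% to 52.8%), with Tgfbr3 called without F4/80high library 1. The causes were not tested.

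The labels do not tie replicate numbers to the 3 sortings. Deviations of same-numbered libraries correlated at -0.045 to 0.098 in lymphocytes and at 0.172, -0.015 and 0.027 in MAMs. Not every library correlated best with its own number. In both LM populations, Smad7, Skil and Tgif1 were highest in library 3 and lowest in 2. Whether a number marks a sorting was not tested. With the replicate block, the calls became 2 in LM CD49a+ against MFL NK cells (Ski and Smad7) and 2 in MFL ILC1s against MFL NK cells (Smad3 and Tgif1), with no other change in the count of the 10 genes called.

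None of the values that changed direction passed the threshold, before or after. With limma-voom, Smad2 in LM CD49a- against MFL NK cells was 0.054 (-0.24 to 0.066 with each library left out). With LM libraries 3 left out, Smad3 was -0.058 in LM CD49a+ NK cells against MFL ILC1s (-0.073 to 0.43 with each library left out) and -0.019 in LM CD49a- against MFL NK cells (-0.071 to 0.16), Tgfbr1 was -0.27 in LM CD49a+ against MFL NK cells (-0.27 to 0.61), Tgfbr2 -0.0064 in LM CD49a+ NK cells against MFL ILC1s (-0.057 to 0.12) and Tgfbr3 3.61 between the LM populations (-5.41 to 3.08). With each library left out, the difference between the LM populations ranged from -0.92 to 0.39 for Skil, -0.77 to 0.42 for Smad7 and -1.60 to 0.45 for Tgif1, and that between LM CD49a+ NK cells and MFL ILC1s from -0.50 to 0.022 for Smad2 and -1.75 to 3.06 for Tgfbr3.

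The number of all genes called moved by over 1.5 times in lymphocytes. Between the LM populations it was 19, and 200 without the filter, 543 with DESeq2, 0 with limma-voom (746 at an unadjusted p under 0.05), 3 in a fit of both populations alone, 8 at 0.05 and 415 with LM libraries 3 left out. For LM CD49a- against MFL NK cells it was 10, and 158, 161, 104, 3, 4 and 218 in the same order. For LM CD49a+ against MFL NK cells it was 88, and 371, 365 and 307 in the first 3 of these and 57 at 0.05. For MFL ILC1s against MFL NK cells it was 416, and 667 with DESeq2, 2645 with limma-voom and 1228 in a fit of both alone. For LM CD49a+ NK cells against MFL ILC1s it was 486, and 774, 1010 and 935 in the first 3 and 322 at 0.05. For the interaction it was 140, and 264 without the filter, 349 with DESeq2, 90 at 0.05 and 257 with LM libraries 3 left out. With each library left out, the counts in the order above ranged from 5 to 267, 1 to 110 and 26 to 168. The rest ranged from 268 to 562, 257 to 708 and 75 to 256. Without LM CD49a- library 3, the first was 267, the second 110 (20 higher and 90 lower, from 9 higher and 1 lower) and the last 256. The shares of all genes printed as background rest on these counts. With limma-voom the median of all genes shifted to -0.36 (LM CD49a- against MFL NK cells), -0.27 (LM CD49a+ against MFL NK cells) and -0.28 (LM CD49a+ NK cells against MFL ILC1s), so that its folds are relative to these medians. Counts limit what can be said of Tgfbr3 in lymphocytes, where 3 populations held 0 to 17 counts per library.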
